A study of Gallus gallus with 12 samples.

Results

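The baseline described here is the expression of early chick neural tube cells that had received only the control plasmid with green fluorescent protein (GFP). It rests on the arrays whose titles name the control-GFP plasmid, 4 of the 12 arrays in the series. The chicken probe sets were ranked by their mean log2 signal over these 4 arrays, and genes of 6 functional classes were then followed across the pools. The study as a whole asked how NEUROG2, a proneural transcription factor, changes gene expression in such cells. Its groups were cells with a NEUROG2 plasmid, cells with a NEUROG2AQ plasmid and cells with the control plasmid, with 4 arrays each. The labels give no more than the name of NEUROG2AQ.

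All 12 arrays share the same procedure. Embryos at stages HH10 to HH11 were electroporated in the egg, and every plasmid also made GFP. Neural tubes were dissected 6 hours later and those of 20 embryos were pooled for each replicate. GFP-positive cells were sorted, so each array shows the cells of the tube that had taken up plasmid, and 50 ng of their RNA was amplified for the array. Because a replicate is 1 pool on 1 array, pool spread and array spread cannot be told apart. The labels give neither the sex of the embryos nor the axial level that was dissected.

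At this age most cells of the neural tube are dividing progenitors. Dorsal signals of the WNT and BMP families and ventral hedgehog signals set up bands of progenitors, each with its own transcription factors, while HOX genes mark position from head to tail. FGF signals at the tail end and retinoic acid beside the somites act against each other on the timing of differentiation. Within a band, Notch signalling keeps most cells as progenitors: a cell with more of a proneural factor makes more of the ligand DLL1, and its neighbours answer through NOTCH1 and HES genes.

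The values are RMA signals on a log2 scale, on which a step of 1 is a factor of 2. Where a gene had several probe sets, the one with the highest mean over all 12 arrays was taken. The signal of a probe set depends on how well its probes bind as well as on the transcript, so the ranks order signals and not transcript amounts. A gene was counted as above background where its control mean exceeded 2.28, the 95th percentile of 689 probe sets for other organisms on the same arrays. Of the 37693 chicken probe sets, 22785 passed that limit (60.4%). Of 13008 genes, 10392 passed it (79.9%), with 449 genes within 0.2 above the limit and 435 within 0.2 below it. The 4 control arrays had medians between 2.81 and 2.85. Their 6 pairwise correlations over all chicken probe sets lay between 0.980 and 0.994. No pair held identical values. Control replicate 1 stood farthest from the others, with a root mean square difference from their mean of 0.379, against 0.20 in replicate 2, 0.286 in replicate 3 and 0.236 in replicate 4.

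At the top of the ranking stood the protein-making machinery. The highest gene signals were those of RPS3A at 13.18 ± 0.05 (mean ± SD, n = 4, as for all means below) and RPS20 at 13.17 ± 0.02, both proteins of the small ribosomal subunit. Ribosomal proteins and the elongation factor EEF1A1 (12.92 ± 0.05) filled most of the first 20 places. Others among them were NME2 at 12.91 ± 0.04, a nucleoside diphosphate kinase, ENO1 at 12.72 ± 0.05, a glycolytic enzyme, and ANP32B at 12.62 ± 0.06. In all, 355 genes had a mean above 10, and the median over all genes was 4.66.

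The labelled tissue was checked against its markers. Each of the 13 neural tube markers measured was above background, with a median of 9.23, and none of them varied by 1 or more between pools. They include HES5, the Notch-induced repressor of neuronal differentiation, whose signals were 11.12, 11.48, 11.68 and 11.34 in control replicates 1 to 4, above 99.6% of chicken probe sets. VIM, the intermediate filament of neuroepithelial cells, averaged 11.03 ± 0.09, and CDH2, the N-cadherin of the neuroepithelium, averaged 9.96 ± 0.08. The progenitor filament NES stood at 9.23 ± 0.39 and the fatty acid binding protein FABP7 at 9.37 ± 0.36. Among the SOXB1 factors that maintain neural progenitors, SOX3 was at 9.04 ± 0.17, SOX1 at 7.56 ± 0.12 and SOX2 at 6.02 ± 0.34.

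Markers of other tissues were present at varied levels. Of 19 neural crest markers 17 were above background (89.5%), and of 12 notochord and floor plate markers 12, against 79.9% of all genes. The other lists were under that share. Of 23 somite markers 15 passed (65.2%), and of 24 blood and endothelium markers 11 (45.8%). Of 19 surface ectoderm markers 13 passed (68.4%), and of 24 endoderm and lateral plate markers 13 (54.2%). Several markers were not: the endothelial receptor KDR was at 2.03, the blood factor TAL1 at 1.69, the somitic muscle factor MYOD1 at 1.62, the endoderm factor SOX17 at 2.03 and the heart factor NKX2-5 at 0.84. Other members of the same lists were well above the limit. Among these were HBZ (6.84 ± 1.65) of the blood list, and NKX3-2 (6.30 ± 1.01) and MEOX1 (5.21 ± 0.86) of the somite list. VTN (8.15 ± 0.38) and TNNC1 (8.01 ± 0.20) were such members of the endoderm and lateral plate list. EPCAM (8.52 ± 0.26) and KRT7 (7.36 ± 0.17), epithelial genes of the ectoderm list, were well above the limit. In pooled cells, fewer cells of a type and less RNA per cell cannot be told apart.

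**Figure D1:**
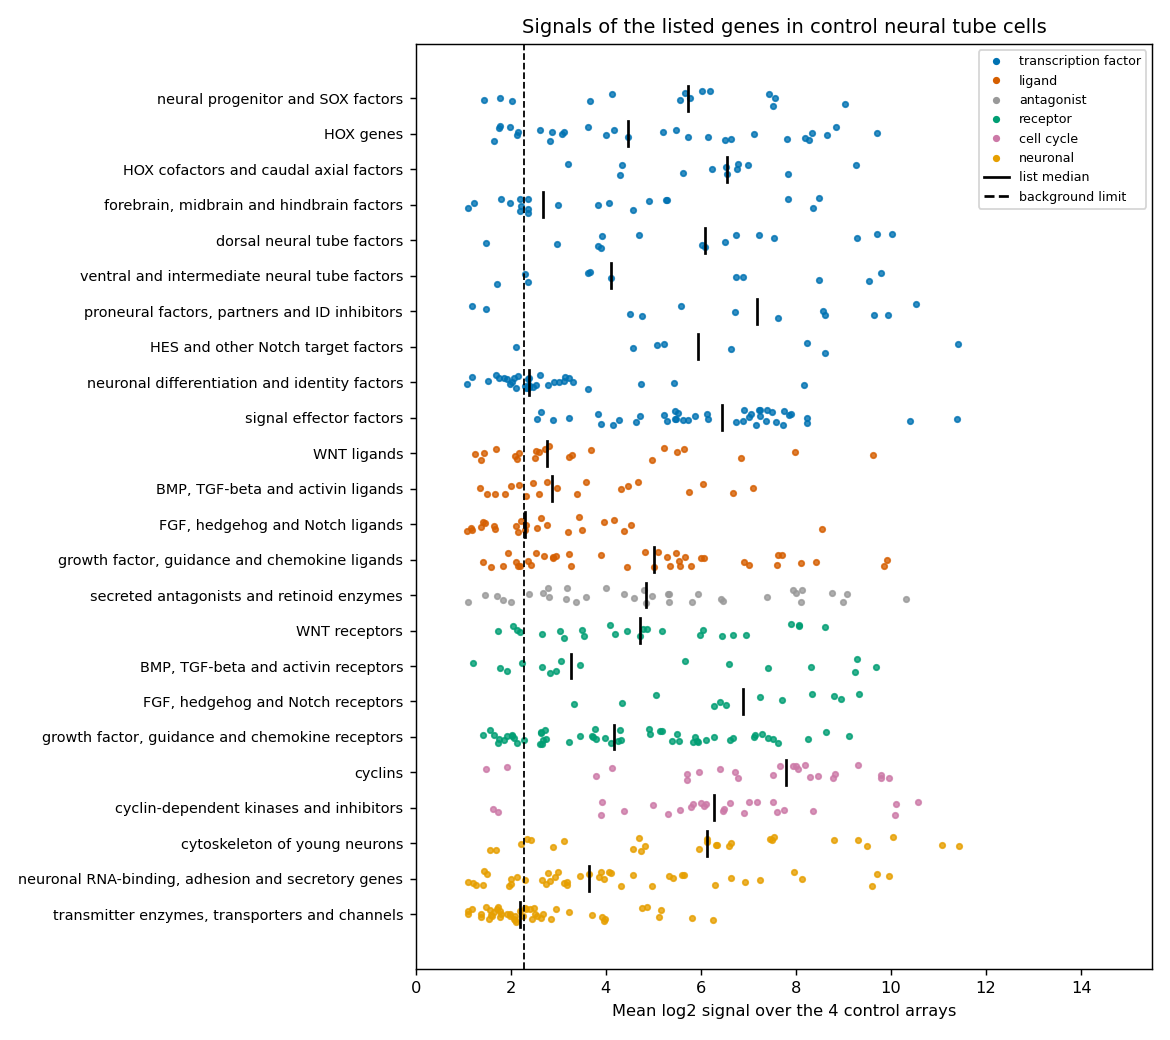
Mean log2 signal over the 4 control arrays (x axis) for each measured member of the 24 role lists (rows). Each point is 1 gene, coloured by class, the black bar is the list's median and the dashed line is the background limit of 2.28. Cyclins have a median of 7.80, while transmitter enzymes, transporters and channels have a median of 2.18, under the limit.

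Of 272 transcription factors listed, 192 had a probe set with their symbol and 161 of these were above background (83.9%, against 79.9% of all genes), with a median of 5.21. Some of the highest signals of this class came from the signal effector list. The mediator of canonical WNT signalling CTNNB1 averaged 11.39 ± 0.14, and MYCN, a MYC-family factor of growing progenitors, averaged 10.40 ± 0.05 with signals of 10.42, 10.38, 10.34 and 10.45. Those 4 MYCN values span 0.10, so the pools hardly differed. All 42 measured signal effector factors were above background, among them GLI3, a transducer of hedgehog signals (8.22 ± 0.21), RARB, a retinoic acid receptor (8.22 ± 0.30), and E2F1, a driver of S phase entry (7.88 ± 0.24).

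HOX genes were detected from the anterior to the posterior paralog groups. All 8 measured genes of paralog groups 1 to 4 were above background, with means between 4.17 and 9.70 and a median of 8.31. HOXD4 led them at 9.70 ± 0.21, followed in the ranking by HOXB1 at 8.84 ± 0.11 and HOXA3 at 8.64 ± 0.15. Of the 9 genes of groups 5 to 8, 8 were above background, with a median of 6.51, among them HOXA7 at 8.18 ± 0.33 and HOXA6 at 7.82 ± 0.15. HOXA9 and HOXC9 represent group 9, at 5.47 ± 1.04 and 5.20 ± 1.19. Of the 10 genes of groups 10 to 13 only 5 passed the limit, and the median of those 10 was 2.48. HOXA10 (4.46 ± 0.06) had the highest of these posterior signals. For HOXA11, above the limit at 3.08, only 1 of 5 probe sets was above background.

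Within groups 1 to 8 the widest range over the pools was 0.75, for HOXA7, and both group 9 genes exceeded it. This holds for the probe set taken for each gene: 1 of 4 probe sets of HOXA7, 1 of 2 of HOXA6 and 1 of 2 of HOXD8 had a range of at least 1. HOXA9 had 5.68, 6.85, 4.76 and 4.59 in control replicates 1 to 4, and HOXC9 had 5.35, 6.72, 4.87 and 3.86. In both genes replicate 2 was the highest and replicate 4 the lowest, with ranges of 2.26 and 2.85. They still spanned over 1 with any 1 array left out, the smallest such ranges being 1.09 for HOXA9 and 1.49 for HOXC9, both without replicate 2. The other HOXA9 probe set was not above background.

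**Figure D2:**
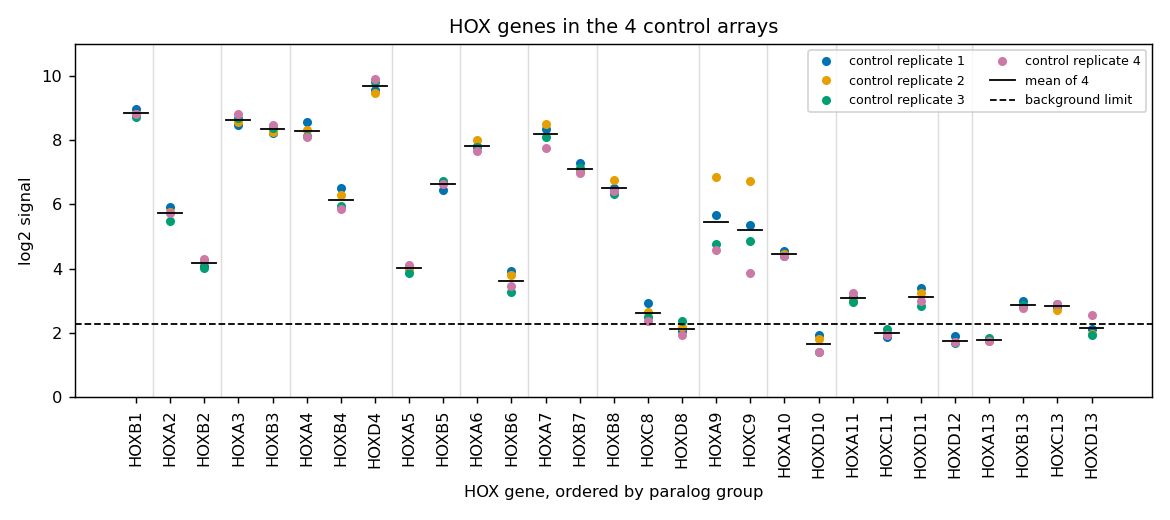
Log2 signal (y axis) of the 29 measured HOX genes in each of the 4 control arrays (coloured points), ordered from paralog group 1 on the left to 13 on the right. Black bars are means of 4 arrays and the dashed line is the background limit. Points overlap for most genes, and HOXA9 and HOXC9 spread over 2.26 and 2.85.

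Factors that act with HOX genes or mark the growing tail end were present throughout, all 12 of those measured, against 79.9% of all genes. SP8 averaged 9.25 ± 0.23 and SALL4 averaged 7.84 ± 0.09. The caudal homeobox genes, which activate posterior HOX genes, varied between pools: CDX4 had 6.35, 7.48, 7.24 and 6.87, and CDX2 had 7.24, 6.45, 6.18 and 6.23. Replicate 1 was thus the lowest pool for CDX4 and the highest for CDX2. Of the 3 CDX2 probe sets, all above background, only 1 had a range of at least 1, and that range was 1.05. TBXT, the Brachyury factor of notochord and tail bud, had 7.40, 6.43, 5.99 and 6.41, again highest in replicate 1. Without that replicate their ranges were 0.61 for CDX4, 0.26 for CDX2 and 0.44 for TBXT, all under 1.

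Factors of the head gave few clear signals. Of 20 measured forebrain, midbrain and hindbrain factors 13 passed the limit (65%, against 79.9% of all genes), with a median of 2.68. OTX2, which marks forebrain and midbrain, was at 2.18 ± 0.23, below the limit in its mean, and both of its probe sets were below it. The forebrain factors SIX3 (2.19), LHX2 (1.09) and FEZF2 (1.22), named after their values were seen, were below it too. The members with clear signals also act outside the head: IRX1 at 8.47 ± 0.28, GBX2 at 8.36 ± 0.20 and NR2F2 at 7.84 ± 0.19. EN1, a midbrain and later interneuron factor, was at 2.36 ± 0.27, just above the limit.

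Both dorsal and ventral progenitor factors were found in the sorted cells. The share above background was 93.3% on the dorsal list and 90.9% on the ventral and intermediate list, against 79.9% of all genes. On the dorsal list, 14 of 15 measured genes were above background, led by ZIC1 (10.02 ± 0.35), MSX1 (9.71 ± 0.20) and ZIC2 (9.28 ± 0.12), while PAX7 was at 7.54 ± 0.12 and PAX3 at 3.90 ± 0.39. On the ventral and intermediate list 10 of 11 passed: PAX6 had 9.52, 9.75, 10.05 and 9.79, NKX6-1 averaged 9.53 ± 0.35, and OLIG2, the factor of motor neuron progenitors, had 8.80, 8.56, 8.46 and 8.09. In both NKX6-1 and OLIG2 replicate 1 was the highest and replicate 4 the lowest. TFAP2B, a gene of dorsal and crest cells, was lowest in replicate 1 at 2.76 and highest in replicate 4 at 4.73, with 3.71 and 4.12 in replicates 2 and 3. FOXA2, the floor plate and notochord factor, was highest in replicate 1 and lowest in replicate 4, at 4.92, 4.11, 3.97 and 3.44.

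Partners and inhibitors of proneural factors, and Notch targets, gave some of the highest signals of the factor lists. TCF12, an E protein that pairs with proneural factors, averaged 10.53 ± 0.27, and its relative TCF3 averaged 8.56 ± 0.08. The ID proteins, which block such pairs, were also high in rank, with ID1 at 9.93 ± 0.24, ID2 at 9.64 ± 0.14 and ID4 at 8.60 ± 0.23. The proneural factor NEUROG1 had 6.85, 6.53, 6.64 and 6.86. NEUROG2 itself had 6.07, 5.61, 5.28 and 5.33. Its probe set averaged 3.90 ± 0.17 in NEUROG2 cells, 4.64 ± 0.10 in NEUROG2AQ cells and 5.57 ± 0.36 in control cells, and since no source used here says whether it reads the plasmid's transcript, it does not check the labels. None of the 10 members above background on this list spanned 1 over the pools. Beside HES5, HES6, an inhibitor of HES1 activity, stood at 8.62 ± 0.17 and HES4 at 8.22 ± 0.12. HEY1, another Notch target, varied, with 7.12, 6.84, 6.47 and 6.09.

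Factors of differentiating neurons were mostly near the limit. Of 33 measured, 21 passed it, with a median of 2.38 over all 33, but only 8 were above the stricter 99th percentile of 3.07. Clear signals came from BHLHE22 (8.17 ± 0.20, on 1 of 2 probe sets), NHLH1 (5.44 ± 0.22) and NHLH2 (4.74 ± 0.11). The motor neuron gene MNX1 averaged 3.30 ± 0.34 and the interneuron gene LHX1 averaged 3.23 ± 0.16, while the motor neuron gene ISL1 was below the limit at 1.75 ± 0.29. NEUROD1, named after its value was seen, was below it at 1.18.

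Of 105 ligands measured 74 were above background (70.5%, against 79.9% of all genes), with a median of 2.97. Among WNT ligands 15 of 22 were above background. WNT4 had 9.82, 9.47, 9.49 and 9.69, and WNT3A, a signal of the dorsal midline, had 7.65, 8.17, 7.79 and 8.30. Both were far above the limit in every pool, while WNT1, another dorsal midline ligand, was at 3.29 ± 0.10. NDP, a ligand for frizzled receptors, averaged 6.84 ± 0.11, WNT5A averaged 5.63 ± 0.29 and WNT5B averaged 5.50 ± 0.31. No WNT ligand spanned 1 over the pools, a range that 8.43% of all genes above background had.

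Ligands of the BMP, TGF-beta and activin families passed the limit in 14 of 20 cases, and 9 did at the stricter limit. BMP7, a roof plate and ectoderm signal, averaged 7.09 ± 0.24, GDF10 averaged 6.67 ± 0.13 and TGFB3 averaged 6.04 ± 0.19. BMP4 was at 3.39 ± 0.17. BMP5 varied, with 3.01, 3.13, 3.78 and 4.43, highest in replicate 4.

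Of the FGF, hedgehog and Notch ligands 13 of 24 passed, and 8 at the stricter limit. DLL1, the Notch ligand of newborn neurons, stood apart from that list with 8.43, 8.76, 8.48 and 8.52, values that span 0.33. JAG1 averaged 4.54 ± 0.31 and JAG2 averaged 2.64 ± 0.09. FGF8, a signal of the tail end and of the midbrain border, had 3.58, 2.37, 1.94 and 2.34, so it was above the limit in replicates 1, 2 and 4 and below it in replicate 3. SHH, made by notochord and floor plate, had 3.42, 3.77, 2.67 and 2.94, with replicates 1 and 2 the highest. Their ranges, 1.64 and 1.10, made them the varying members of this list.

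Growth factor and guidance ligands were above background in 32 of 39 cases (82.1%, near the 79.9% of all genes). Midkine and pleiotrophin, related heparin-binding growth factors, led: MDK averaged 9.92 ± 0.33 and PTN had 9.18, 9.69, 10.28 and 10.25, lowest in replicate 1. PDGFA was at 8.42 ± 0.30, the matrix protein gene RELN at 8.10 ± 0.21 and the ephrin EFNB1 at 7.70 ± 0.17. NRG1, an ERBB ligand, was lowest in replicate 1 at 3.99, against 5.73, 6.36 and 6.08 in replicates 2 to 4. Of its 3 probe sets 2 were above background and 1 had a range of at least 1.

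Secreted antagonists and enzymes of retinoid metabolism passed in 30 of 35 cases, with a median of 4.85. The WNT antagonists SFRP2 and FRZB averaged 10.31 ± 0.09 and 8.75 ± 0.10. CYP26A1, which breaks down retinoic acid, had 8.06, 7.82, 8.38 and 8.23, and DHRS3, which lowers its precursor, averaged 9.07 ± 0.15. ALDH1A2, which makes retinoic acid and is a gene of the somites, varied and was highest in replicate 1, with 5.96, 5.56, 4.82 and 4.99. The BMP antagonist CHRD, a notochord product, had 6.74 in replicate 1 against 4.85, 4.79 and 4.95 in replicates 2 to 4. Without replicate 1 the CHRD range was 0.16. The hedgehog-binding protein HHIP, a target of hedgehog signalling, had 4.15, 4.56, 5.68 and 5.03.

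Receptors were above background in 88 of 107 cases (82.2%, against 79.9% of all genes), with a median of 4.73. All 12 measured receptors and co-receptors for FGF, hedgehog and Notch ligands passed, beside 13 of 24 of their ligands. FGFR1 had 9.60, 9.29, 9.15 and 9.22, FGFR2 had 8.61, 8.92, 9.14 and 9.15, and FGFR3 had 8.56, 8.23, 9.20 and 9.21. For the hedgehog pathway, SMO averaged 8.35 ± 0.34 and its inhibitor PTCH1 averaged 7.25 ± 0.37. NOTCH1 had 7.81, 7.65, 7.77 and 7.57, a span of 0.25. LRP2, an endocytic co-receptor, was above the limit on only 1 of its 9 probe sets, at 4.34 ± 0.43.

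WNT receptors passed in 21 of 25 cases, led by FZD1 (8.62 ± 0.07), FZD3 (8.06 ± 0.08) and ZNRF3, which removes frizzled receptors from the surface (8.06 ± 0.12). FZD2 was the varying member, highest in replicate 1 at 7.17 and lowest in replicate 3 at 5.92. Receptors for BMP and activin passed in 12 of 16 cases. The activin type II receptors ACVR2B and ACVR2A averaged 9.68 ± 0.44 and 8.31 ± 0.12, and BMPR1B averaged 5.66 ± 0.35. Of 54 growth factor and guidance receptors 43 passed (79.6%, near the 79.9% of all genes). Among them were the plexins PLXNA2 (9.11 ± 0.22) and PLXNA1 (8.25 ± 0.15), IGF1R (8.63 ± 0.15) and the chemokine receptor CXCR4 (7.62 ± 0.21). RET had 4.44, 4.23, 5.48 and 5.58, so replicates 3 and 4 were over 1 above replicates 1 and 2.

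Of 50 cell cycle genes measured 46 were above background (92%, against 79.9% of all genes), with a median of 6.75. Of 24 cyclins 22 passed, and none of these spanned 1 over the pools. This holds for the probe set taken for each gene: 1 of 3 probe sets of CCNC, for example, had a range of at least 1. CCND1, the D-type cyclin of cycling progenitors, had 9.56, 9.80, 10.19 and 10.28. CCND2 averaged 8.05 ± 0.05 and CCND3 averaged 6.72 ± 0.14. Of the S phase cyclins, CCNE2 averaged 7.93 ± 0.07, CCNE1 averaged 5.70 ± 0.12 and CCNA2 averaged 8.30 ± 0.14. The mitotic cyclins CCNB1 and CCNB3 averaged 9.78 ± 0.15 and 7.67 ± 0.39. Cyclins of every phase were thus detected, and those below the limit were CCNA1, a germ line cyclin, at 1.92 ± 0.10, and CCNJL at 1.47 ± 0.23.

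Their partners gave comparable ranks. CDK1, the mitotic kinase, averaged 10.10 ± 0.31, its regulator WEE1 averaged 10.07 ± 0.04 and the kinase subunit CKS1B averaged 10.56 ± 0.21. CDKN3 was the only varying gene of the kinase and inhibitor list, with 5.11, 4.61, 3.87 and 3.94, and 1 of its 2 probe sets varied. The inhibitors CDKN2A (1.62) and CDKN2B (1.73), named after their values were seen, were below the limit.

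**Figure D3:**
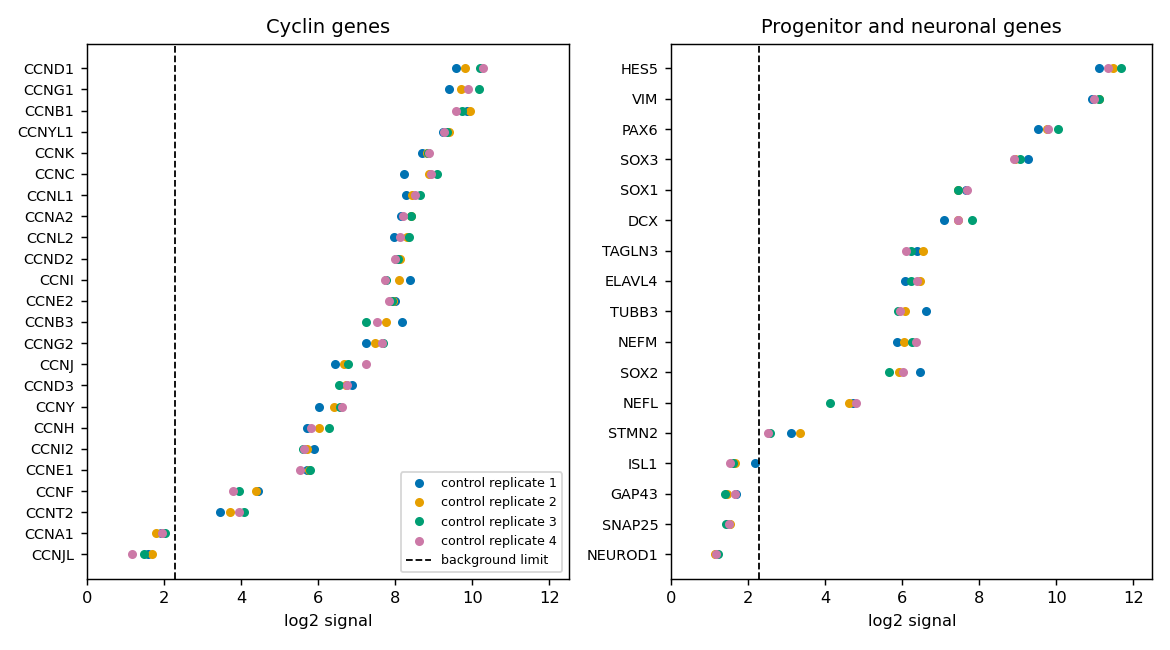
Log2 signal (x axis) in each of the 4 control arrays (coloured points) for the 24 measured cyclins (left) and for 17 progenitor and neuronal genes (right), ordered by mean, with the background limit dashed. Of the cyclins only CCNA1 and CCNJL lie below the limit. Among the neuronal genes ISL1, GAP43, SNAP25 and NEUROD1 lie below it.

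Neuronal genes passed the limit in 79 of 117 cases (67.5%, against 79.9% of all genes), in 3 lists. Of 27 cytoskeletal genes 24 passed. STMN1 (11.44 ± 0.26), MARCKS (11.08 ± 0.08) and TUBB2B (10.04 ± 0.17) led, and all of these are also made by progenitors. Genes of young neurons had lower ranks: DCX had 7.09, 7.46, 7.82 and 7.46, TUBB3 had 6.62, 6.07, 5.89 and 5.95, and NEFM had 5.87, 6.05, 6.25 and 6.36. NEFL averaged 4.57 ± 0.31 and STMN2 averaged 2.89 ± 0.40. GAP43, named after its value was seen, was below the limit at 1.55. No member of the cytoskeletal list above background spanned 1 on the probe set taken for it. Examples with another probe set that did are MAP1A (1 of 8) and MAP1B (1 of 2).

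RNA-binding, adhesion and secretory genes passed in 33 of 43 cases. After CDH2, the highest ranks were those of the adhesion molecule CADM1 (9.70 ± 0.30) and of UCHL1 (9.60 ± 0.07, on 1 of 3 probe sets). ELAVL4, a neuronal RNA-binding protein, averaged 6.29 ± 0.18. SCG3, a protein of secretory granules, varied most on this list, with 3.20, 4.20, 4.82 and 5.05. SNAP25, of the synaptic vesicle fusion machinery and named after its value was seen, was below the limit at 1.49.

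Of transmitter enzymes, transporters and channels 22 of 47 were above background, with a median of 2.18 and only 11 above the stricter limit. PENK, the enkephalin precursor, had 7.03, 6.42, 5.90 and 5.70, and the kainate receptor subunit GRIK3 averaged 5.82 ± 0.18. NPY, a neuropeptide, had 5.94 in replicate 1 against 3.76, 3.07 and 3.06 in replicates 2 to 4. The NPY range of 2.88 was 0.70 without replicate 1.

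Variation between the pools was counted as a range of at least 1 over the 4 control arrays. Of all chicken probe sets, 1927 had such a range (5.11%). Of the genes above background, 876 did (8.43%), and 95 had a range of at least 2. With so small a share, a short list without a varying gene is not by itself set apart. The median range of genes above background was 0.46. Just inside the limit, 214 genes had ranges from 1.0 to 1.1, and just outside it 362 genes had ranges from 0.9 to 1.0. By class, the varying genes above background were 12 of 161 transcription factors, 7 of 74 ligands, 3 of 30 antagonists and retinoid enzymes, 5 of 88 receptors, 1 of 46 cell cycle genes and 9 of 79 neuronal genes. Among markers, 9 of 15 somite genes, 5 of 12 notochord and floor plate genes and 6 of 11 blood genes varied, and none of 13 neural tube genes did.

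Replicate 1 was the array farthest from the median of the 4 control arrays for 671 of the 876 varying genes (76.6%), lower in 552 and higher in 119. Replicate 3 was farthest for 123, replicate 4 for 49 and replicate 2 for 33. Without replicate 1 the number of varying genes above background was 133, and without replicate 3 it was 540. Without replicate 2 or 4 it was 827 or 789. Over all probe sets, 381 varied without replicate 1 and 1172 without replicate 3. A range over 3 arrays is by construction no wider than over 4.

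**Figure D4:**
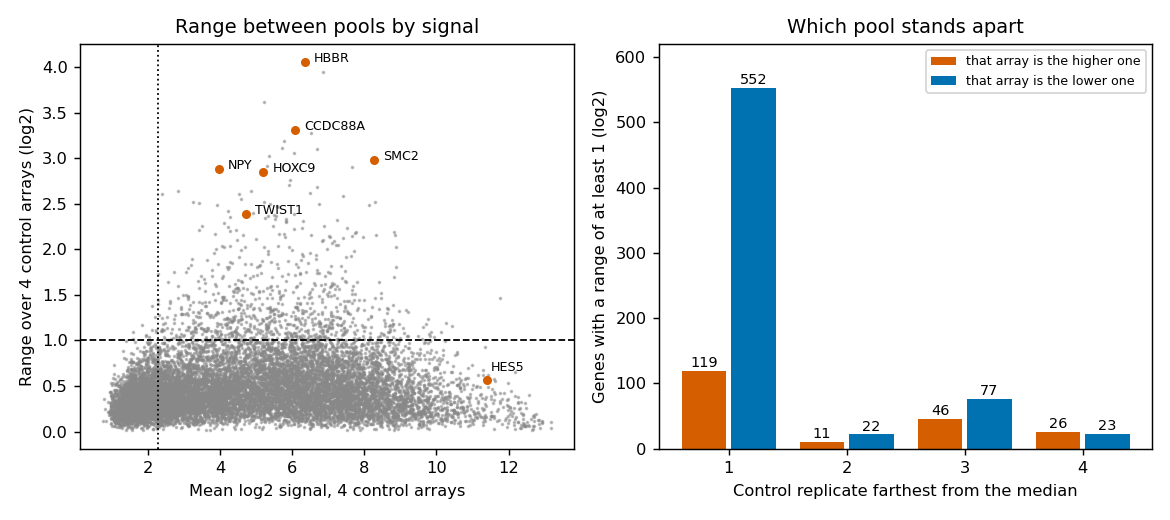
Left, the range over the 4 control arrays (y axis, log2) against the mean log2 signal (x axis) of each gene (grey points), with the range limit of 1 dashed, the background limit dotted and 7 genes marked. Right, the number of varying genes above background by the control replicate that lies farthest from the median, split by whether that array was higher or lower. Replicate 1 holds 552 lower and 119 higher genes.

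The genes low in replicate 1 include structural and chromosome proteins. CCDC88A had 3.99 in replicate 1 against 5.85, 7.30 and 7.18 in replicates 2 to 4. SMC2, a condensin subunit, had 6.22 against 8.66, 9.20 and 8.98. DNMT3A, a DNA methyltransferase, had 5.61 against 8.10, 8.41 and 8.51. Of its 2 probe sets, both above background, 1 had a range of at least 1. CENPE, a kinetochore motor, had 4.11 against 5.97, 6.79 and 6.81. Replicate 1 lay below every other control pool in each of these genes, and likewise in BOD1L1, CWC27, CASP8AP2, SMC5, SYNE2, NOL8, LYAR, ATAD5 and LRRCC1, all among the 20 widest ranges.

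For 325 of the 552 genes other probe sets were above background, 556 in all, and for 227 there was none. Of the 556, 313 had a range of at least 1 and 463 (83.3%) were lowest in replicate 1, against 33.1% of all 17275 named probe sets above background. Their median difference of replicate 1 from the other pools was -0.81, against 0.03 for all. Deviations of the 552 genes were taken from each gene's median within its own group of 4 arrays, so they do not compare the groups. Their median was -1.02 in control replicate 1, the array for which these genes were chosen as low. It was between -0.08 and 0.16 in the NEUROG2 arrays, between -0.25 and 0.11 in the NEUROG2AQ arrays and between -0.08 and 0.27 in the other control arrays. The 3' minus 5' signal of control probe sets is a measure of transcript integrity. Its mean over actin and EF1A was 1.73, 1.76, 1.72 and 1.98 in control replicates 1 to 4. For GAPDH it was 0.31, 0.26, 0.43 and 0.41. The part of transcript integrity in the low signals of replicate 1 was not tested.

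Many somite and notochord genes were highest in replicate 1. Of the 23 somite markers 18 were highest there, and the list averaged 3.97, 3.41, 3.09 and 3.16 over replicates 1 to 4. Being highest there was not particular to these lists. It held for 19 of 33 factors of differentiating neurons and 15 of 24 endoderm and lateral plate markers. It also held for 5 of 13 neural tube and 6 of 24 blood and endothelium markers. The share over all genes was not counted. The paraxial mesoderm factor MSGN1 had 4.12 in replicate 1 and 2.28, 1.51 and 1.66 in the others. TWIST1 had 6.16 against 4.93, 3.77 and 3.99, NKX3-2 had 7.74 against 6.18, 5.42 and 5.85, and MEOX1 had 6.41 against 5.10, 4.38 and 4.95. In all 4 genes replicate 1 was the highest and replicate 2 the next. In the NEUROG2 arrays, too, replicates 1 and 2 lay above replicates 3 and 4 in each of these genes. TWIST1, for example, had 4.80, 4.99, 3.58 and 3.86 there. In the NEUROG2AQ arrays this held for NKX3-2 only, and TWIST1 had 3.53, 3.86, 2.67 and 3.96. What same-numbered replicates share was not tested. The notochord list averaged 5.30, 4.77, 4.57 and 4.58, and its member NOTO had 5.89, 4.85, 4.03 and 3.73. For NKX3-2 and for NOTO, 1 of 2 probe sets had a range of at least 1. Without replicate 1, only 1 somite marker and 2 notochord markers above background varied. The neural tube list averaged 8.86, 8.80, 8.69 and 8.73 over the same arrays. The part of mesodermal cells in these values was not tested.

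Haemoglobin genes were among those with the widest ranges and set replicate 4 apart. HBBR had 5.44, 6.80, 4.54 and 8.59, and HBZ had 6.33, 7.02, 5.03 and 8.97. HBAD had 4.37, 5.45, 3.74 and 7.36, while HBA1 and HBE spanned 3.27 and 3.10 in the same order. In all 5 genes replicate 4 was the highest, then replicate 2, and replicate 3 was the lowest. The blood and endothelium list averaged 2.99, 3.07, 2.76 and 3.40, with TAL1, KDR and CDH5 (1.54) below background. TTR, a transport protein of yolk sac and liver, was also set apart in replicate 4, at 5.74 against 3.39, 3.26 and 3.33.

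The pools also differed in genes of the sex chromosomes, a group chosen after the values were seen, with chromosomes taken from the RefSeq gene table of assembly GRCg7b. Birds carry Z and W chromosomes, and only females carry W. Of 17 measured W genes 14 were above background, 11 of these were lowest in replicate 3 and 10 varied. HINTW, the most abundant W gene by signal, had 12.24, 12.21, 10.77 and 11.82. The W genes averaged 5.56, 5.68, 4.73 and 5.39 in control replicates 1 to 4. In the NEUROG2 arrays these means lay between 5.19 and 5.60, and in the NEUROG2AQ arrays between 4.91 and 5.24, so control replicate 3 was the lowest of the 12. Of 447 Z genes above background, 276 (61.7%) were lowest in replicate 1, against 33.1% of autosomal genes. Of the same 447, 263 (58.8%) were highest in replicate 3, against 27.2% of autosomal genes. The Z genes averaged 5.28, 5.55, 5.77 and 5.63 in control replicates 1 to 4, and 90 (20.1%) varied, against 7.82% of autosomal genes. Of the 552 genes low in replicate 1, 71 (12.9%) lie on Z, against 4.30% of all genes above background. MBD2 and NEDD4L, which the table places on W, have ranges under 1. The sex makeup of the pools was not tested.

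**Figure D5:**
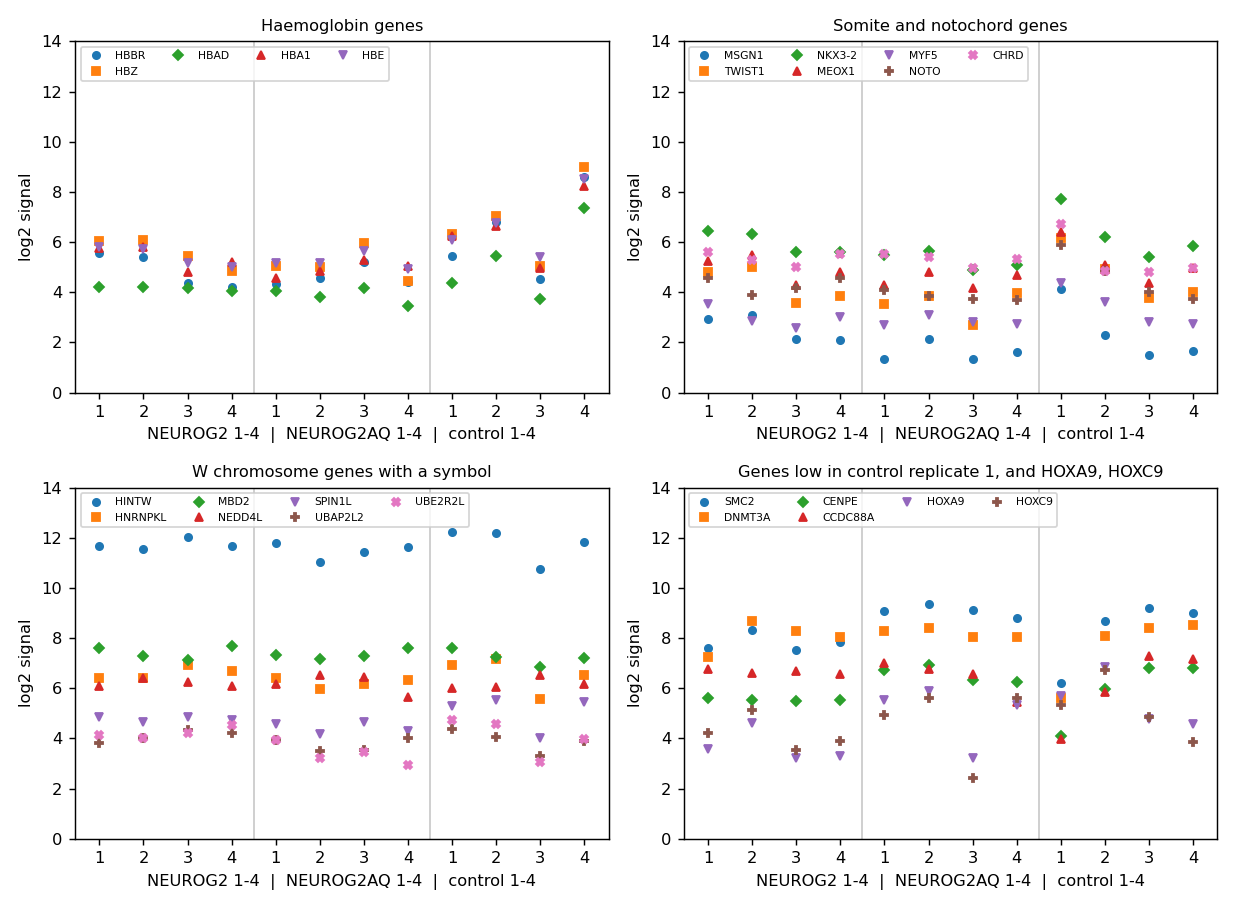
Log2 signal (y axis) in each array (x axis; the NEUROG2 arrays, then the NEUROG2AQ arrays, then the control arrays, by replicate number) of haemoglobin genes, somite and notochord genes, W chromosome genes, and genes low in control replicate 1 with HOXA9 and HOXC9. Each marker shape is 1 gene. Haemoglobins peak in control replicate 4, somite genes in control replicate 1, and HINTW is lowest in control replicate 3, at 10.77.

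The spread seen in control pools was only in part shared with the other groups. Of the 876 varying genes, 50 (5.71%) also had a range of at least 1 over the NEUROG2 arrays and 91 (10.4%) over the NEUROG2AQ arrays. The shares of all genes above background were 1.31% and 2.03%. Seen from the other side, the 50 genes were 36.8% of those that varied in NEUROG2 arrays, and the 91 were 43.1% of those that varied in NEUROG2AQ arrays. Of all genes above background, 8.43% varied in the control arrays. All 3 groups shared 17 genes. HOXA9 and HOXC9 were among these, with ranges over the NEUROG2 arrays of 1.39 and 1.58. In each of the 3 groups replicate 2 gave the highest signal of both genes, for HOXC9 in the NEUROG2AQ arrays level with replicate 4. In the NEUROG2AQ arrays HOXC9 had 4.94, 5.60, 2.43 and 5.60.

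How the baseline genes differed with each plasmid was tested with limma over all 12 arrays, with Benjamini-Hochberg adjustment over all 37693 chicken probe sets. Genes under the limit in control cells are not counted here, so genes switched on by a plasmid are left out. This can tilt the counts of higher and lower genes, in total and by class, towards lower. With NEUROG2, 618 of the 10392 genes above background were higher (5.95%) and 696 were lower (6.7%). The balance turned under cyclic loess scaling, with 709 higher and 545 lower. It also turned with only the 2 groups compared (549 higher, 543 lower) and without control replicate 2 (531 higher, 484 lower). The same held without NEUROG2 replicate 3 (507 higher, 440 lower) or NEUROG2 replicate 4 (500 higher, 470 lower). The other alternatives kept more lower genes. With NEUROG2AQ, 2 were higher (0.0192%) and 12 were lower (0.115%). Both comparisons share the control arrays.

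More transcription factors passed as lower than as higher. Of 161 transcription factors above background, 48 were lower with NEUROG2 and 15 were higher. The shares of all genes above background were 6.7% and 5.95%. Dorsal factors were lower in 8 of 14 cases and HOX genes in 10 of 23, all 10 in paralog groups 1 to 8. HOXD4 averaged 8.74 ± 0.12 in NEUROG2 cells and 9.70 ± 0.21 in control cells, a log2 fold change of -0.95 ± 0.12 (SE, adjusted p = 9.91e-05). GBX2 averaged 7.60 ± 0.18 in NEUROG2 cells and 8.36 ± 0.20 in control cells (adjusted p = 0.000824). PAX7 averaged 6.96 ± 0.07 in NEUROG2 cells and 7.54 ± 0.12 in control cells (adjusted p = 0.00132).

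Of 74 ligands 8 were higher and 9 lower with NEUROG2, and of 88 receptors 10 were higher and 14 lower. The shares of all genes above background were 5.95% higher and 6.7% lower. With cyclic loess scaling the counts were 8 higher and 7 lower for ligands and 11 each way for receptors. The enzyme CYP26A1 averaged 5.67 ± 0.34 in NEUROG2 cells and 8.12 ± 0.24 in control cells, a log2 fold change of -2.45 ± 0.19 (adjusted p = 1.02e-06). WNT4 averaged 7.84 ± 0.25 in NEUROG2 cells and 9.62 ± 0.17 in control cells (-1.77 ± 0.13, adjusted p = 4.61e-07), and WNT3A averaged 6.71 ± 0.11 in NEUROG2 cells and 7.98 ± 0.31 in control cells (-1.27 ± 0.13, adjusted p = 1.73e-05). FGFR3 averaged 7.53 ± 0.15 in NEUROG2 cells and 8.80 ± 0.48 in control cells (-1.27 ± 0.23, adjusted p = 0.00291), while FGFR1 averaged 9.36 ± 0.08 in NEUROG2 cells and 9.32 ± 0.20 in control cells (adjusted p = 0.904). GDF10 (-1.64 ± 0.16, adjusted p = 8.9e-06) and WNT5A (-0.78 ± 0.17, adjusted p = 0.00806) also passed as lower in limma. So did WNT5B, NDP and GDF2, which missed the threshold under 1 or more alternatives. On the list of BMP, TGF-beta and activin ligands 1 member was higher. BMP7, BMP4, WNT1 and FGF8 did not pass, with adjusted p values of 0.212, 0.189, 0.765 and 0.509 in turn.

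Among neuronal genes more members passed as higher, and among cell cycle genes as lower. Of 46 cell cycle genes 3 were higher and 9 lower with NEUROG2, including CCNA2, at 7.52 ± 0.23 in NEUROG2 cells and 8.30 ± 0.14 in control cells (adjusted p = 0.000949). Of 79 neuronal genes 20 were higher and 2 lower. NEFM averaged 8.95 ± 0.13 in NEUROG2 cells and 6.13 ± 0.22 in control cells, a log2 fold change of 2.83 ± 0.12 (adjusted p = 3.63e-09), and NEFL averaged 7.01 ± 0.19 in NEUROG2 cells and 4.57 ± 0.31 in control cells (2.44 ± 0.18, adjusted p = 4.16e-07). LHX1 averaged 4.07 ± 0.24 in NEUROG2 cells and 3.23 ± 0.16 in control cells (adjusted p = 0.000709). Of the marker lists, 6 of 13 neural tube and 6 of 17 neural crest genes above background were lower with NEUROG2. So were 2 of 12 notochord and floor plate and 1 of 13 surface ectoderm genes, and no gene of these lists was higher. Among all genes above background 6.7% were lower and 5.95% higher. The surface ectoderm count is near the lower share. Stress genes were higher in 6 of 27 cases and lower in 1. Of the 15 somite and 11 blood markers above background none passed in limma in either comparison, except that 1 somite marker was higher with NEUROG2 under cyclic loess scaling. At an unadjusted p under 0.05 in limma, 1 somite marker was higher with NEUROG2 and 6 were lower with NEUROG2AQ. At the same level 2 blood markers were lower with NEUROG2 and 4 with NEUROG2AQ. The share of all genes at that level was not counted.

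With NEUROG2AQ, the baseline genes that passed were few. HES6 averaged 7.20 ± 0.12 in NEUROG2AQ cells and 8.62 ± 0.17 in control cells, a log2 fold change of -1.42 ± 0.13 (adjusted p = 0.000113). DLL1 averaged 6.91 ± 0.26 in NEUROG2AQ cells and 8.55 ± 0.15 in control cells (-1.64 ± 0.15, adjusted p = 0.000123). By class, 2 transcription factors, 2 ligands, 1 antagonist, 2 receptors and 1 neuronal gene were lower, and no gene of these classes was higher by limma. Among all genes above background 0.115% were lower. At an unadjusted p under 0.05 in limma, the genes higher with NEUROG2AQ were 4 transcription factors, 1 ligand, 2 cell cycle genes and 5 neuronal genes. Many more were lower at that level: 39 of 161 transcription factors, 14 of 74 ligands and 8 of 30 antagonists. So were 24 of 88 receptors, 5 of 46 cell cycle genes and 11 of 79 neuronal genes. The share of all genes at that level was not counted, so these counts do not single out the classes. The total of 14 calls was 8, 9, 6 and 7 without NEUROG2AQ replicates 1, 2, 3 and 4 in turn, and 8 without control replicate 2.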

How the data were processed

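RNA of sorted GFP-positive cells was measured on Affymetrix chicken arrays. The authors deposited 1 table of log2 signals per probe set, made with RMA (besides RMA, GCOS and affy are listed per the submitters' processing notes, with no versions), and its values were used as deposited. The labels give the logarithm without its base, and base 2 was inferred from their range, 0.494 to 13.97. Their depth is the number of arrays, which limits the precision. Groups follow the sample titles.

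Of 38535 probe sets, the 37693 with chicken identifiers were analysed, and 842 were left out: 96 Affymetrix controls, 57 reporters and 689 for other organisms, which gave the background limit. Of the chicken probe sets 27166 had 1 symbol (26851 current by RefSeq, assembly GRCg7b, and 315 by the platform's annotation), 10350 had none here and 177 had several. In all 13008 genes were covered, 7334 of them by several probe sets.

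Descriptions used Python 3.11.15 with pandas 2.3.3, and tests used limma 3.58.1 in R 4.3.3: lmFit and eBayes on all 12 arrays, group as the only term, 9 residual degrees of freedom, two-sided, adjusted p threshold 0.05. The steps were tested on simulated data.

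Genes were named by rule: the 20 highest means, the 20 widest ranges above background, of each list the 5 highest means and 3 widest ranges, every HOX gene and cyclin, and a fixed set of 50, not all of which had a probe set with that symbol here (GDF7, ELAVL3, NKX2-2, EN2 and EGR2 are examples without one). The rule named 300 genes, and other names are said to be chosen after their values were seen or are members of marker lists. Members and lists were chosen with earlier results of these data known. Alternatives changed the background limit, the range limit, the scaling, the probe sets of a gene, the variance prior and the samples, or used replicate number as a block.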

Additional observations from a re-analysis of the deposited data

Results flagged for a closer look

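Each named gene's 4 control signals were checked for an array far from the other 3 by Dixon's test at its 95% critical value. Of 300 genes looked at, 14 had such an array. Chance alone gives about 1 in 20 groups of this kind, which is near the share flagged here. Replicate 1 was the array in 13 of the 14. Part of the 300 genes were named for their wide range over these same arrays. The flags are thus no independent sign that replicate 1 stands apart.

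Replicate 1 was the low array in DNMT3A, where its log2 signal of 5.61 stood against 8.10, 8.41 and 8.51 in replicates 2 to 4. It was also low in the nucleolar protein gene LYAR (4.75 against 7.22 to 7.44), SOX5 (3.08 against 3.80 to 3.91) and GDF2 (5.07 against 5.90 to 6.03). The same held for PDGFA (7.97 against 8.53 to 8.60), the microtubule protein MAP1A (5.30 against 6.14 to 6.26), GRIK3 (5.56 against 5.88 to 5.93) and the chaperonin HSPE1 (11.36 against 11.55 to 11.57).

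Replicate 1 was the high array in CHRD, at 6.74 against 4.79 to 4.95, and in CLDN1, a tight junction gene of the notochord list, at 8.17 against 7.59 to 7.67. It was also high in NHLH1 (5.76 against 5.30 to 5.36), EFNB1 (7.95, with 7.64 the next) and HOXD12 (1.90 against 1.69 to 1.72, all below background). In TTR, replicate 4 was the high array, at 5.74 against 3.26 to 3.39.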

How the results depend on the processing

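The count of chicken probe sets that varied, 1927, was 178 with a range limit of 2, 887 with 1 probe set per gene and 381 to 1784 with single control arrays left out. For genes above background, leave-one-out settings chosen after seeing the data gave 133 to 827 in place of 876. The lowest of each range came without control replicate 1. The 22785 probe sets above background became 17457 at the 99th percentile, and 22669 to 23218 with single arrays left out. NEUROG2AQ minus control gave 14 calls, 28 with trend and robust, 5 with only the 2 groups, and 6 to 18 with single arrays left out. NEUROG2 minus control gave 1314 calls, and between 947 and 1698 over its alternatives. Whether replicate numbers pair the samples was not settled. Correlations of same-numbered deviations were between -0.02 and 0.23 for NEUROG2 with control and between -0.30 and 0.20 for NEUROG2AQ with control. Differently numbered arrays were not compared in this way. With the replicate block the calls were 1266 and 19. Of the named genes, 94 passed with NEUROG2 and 6 with NEUROG2AQ, and none of these changed direction under the alternatives run. Of the 94, 26 missed the threshold under 1 or more alternatives, as did 4 of the 6 (JAG1, NOTCH1, NEUROG2 and SFRP2). Taking the mean of all probe sets moved the control mean of 147 of 300 named genes by more than 1 SD. Signals near the background limit say little about absence.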

Other observations

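Stress and immediate early genes were measured in the control pools as well, since electroporation, dissociation and sorting precede the RNA. Of 28 measured, 27 were above background (96.4%, against 79.9% of all genes), and none of these spanned 1 between pools. Chaperones that every cell makes led the list, with HSPE1 at 11.51 ± 0.10, HSP90AA1 at 11.50 ± 0.18 and HSPA8 at 11.48 ± 0.06 (log2 mean ± SD, n = 4). The stress-induced factor ATF4 averaged 11.01 ± 0.10, JUN averaged 8.90 and EGR1 averaged 5.77, while FOS stood at 2.52, near the background limit. The series holds no cells without electroporation, so these levels have no untreated value beside them.

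Of 57 reporter probe sets on the array, 12 were above background in control arrays. The brightest averaged 13.93 ± 0.04 in control arrays, and the next 13.84 ± 0.01, at the top of the signal scale. The third averaged 5.31 ± 0.18 in NEUROG2 arrays, 4.79 ± 0.27 in NEUROG2AQ arrays and 7.24 ± 0.24 in control arrays. The files do not say what these probe sets match.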
